A study of Pan troglodytes and Macaca mulatta with 12 samples.

Results

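The guanylate-binding proteins GBP1 to GBP5 were examined in lymphoblastoid cell lines of chimpanzee and rhesus macaque. The genes were taken by 5 Ensembl identifiers of the chromosome 1 cluster, and the exon counts of each were summed. Of the 5 genes, 2 had exons in the count tables, among 16903 genes in all. GBP2 (ENSG00000162645) had 8 exons, with 1950 bases between positions 89345898 and 89360254 of chromosome 1. GBP3 (ENSG00000117226) had a single exon of 194 bases, from 89247218 to 89247411. GBP1 (ENSG00000117228), GBP4 (ENSG00000162654) and GBP5 (ENSG00000154451) were not analysed here. No exon stood under their identifiers in the tables used, and each table lists only exons with at least 1 count. An exon that drew no read and an exon outside the counted set therefore cannot be told apart, and no level is given for these 3 genes.

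Guanylate-binding proteins are large GTPases that are strongly induced by interferon-gamma. In human cells they bind to the surface of intracellular bacteria and to the vacuoles that hold parasites, and they promote inflammasome signalling. GBP2 carries a C-terminal site for a lipid anchor, as do GBP1 and GBP5, while GBP3 and GBP4 lack that site. In the RefSeq annotation of the chimpanzee assembly NHGRI_mPanTro3-v2.0_pri, all these genes lie together on chromosome 1, in the order GBP3, GBP1, GBP2, GBP7, GBP4, GBP5 and GBP6.

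Lymphoblastoid lines are B lymphocytes immortalised for continued growth in culture. RNA sequencing covered 12 such lines, with a single library each. Of the 6 chimpanzee lines, 3 came from females, and of the 6 rhesus macaque lines, 2 did; the others came from males. The labels name no treatment, age or strain, and nothing in them says whether separate cultures were grown, so p-values measure the spread between these lines. Libraries held between 1434241 and 4751954 counts. Values are CPM, counts per 1000000 of a library's total after TMM scaling, and CPM per kb where genes or exons of different length are compared. Among lists of identifiers drawn up for this work, 5 of 6 B lymphocyte markers were counted, all with reads in both species, and their summed level lay between 886 and 2813 CPM among chimpanzee lines, and between 466 and 1549 among the macaques. Of these 5 markers, 3 were called higher in chimpanzee and 2 did not pass (edgeR, median log2 fold change 2.20). Of all tested genes, 24.7% were called higher in chimpanzee and 48.2% in either direction. The 3 T lymphocyte markers had 0 counts in every chimpanzee library and summed to between 0 and 188 CPM in rhesus macaque, highest in replicates 6 and 2 (188 and 98.7 CPM) and at most 12.2 CPM in the other 4 libraries. The 3 monocyte markers stayed at or below 14.1 CPM for chimpanzee and 1.95 for macaque, with 1 of them at 0 in all chimpanzee and 1 at 0 in all rhesus macaque libraries. The natural killer cell list (2 genes) ran from 7.59 to 247 CPM among chimpanzee lines and from 8.38 to 123 among macaques. Its 1 tested gene was not called (edgeR, log2 fold change 0.71). The fibroblast list (2 genes) reached 41.5 CPM among chimpanzee lines and 5.49 among macaques. In the last list 1 gene was tested and was called higher in chimpanzee, with a log2 fold change of 3.00. The part of these marker levels in the differences below was not tested. In bulk RNA, fewer cells of a type and less RNA per cell cannot be told apart.

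The first comparison asks whether the family members stand at different levels in the B cell lines of the 2 species. GBP2 was higher in chimpanzee by about 6.05-fold, and every chimpanzee line lay above every rhesus macaque line. GBP3 showed no called difference on its single counted exon. Its lines overlapped between the species, and the highest GBP3 level of all 12 lines was in a rhesus macaque.

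GBP2 stood at 409, 365, 426, 275, 170 and 288 CPM in chimpanzee replicates 1 to 6. In rhesus macaque replicates 1 to 6 it stood at 45.9, 49.3, 64.6, 82.8, 44.7 and 32.1 CPM. Replicate 5 was the lowest chimpanzee line and replicate 4 the highest rhesus macaque line, and the former still held 2.05 times the level of the latter. Chimpanzee lines averaged 322 ± 96.5 CPM, and the macaques averaged 53.2 ± 17.9 CPM (SD, 6 lines per species). The log2 fold change, chimpanzee minus rhesus macaque, was 2.60 ± 0.27 (SE, edgeR quasi-likelihood test, adjusted p = 5.59e-06). By a normal approximation this corresponds to a fold between 4.17 and 8.78 at 95% confidence. A difference beyond 2-fold was called as well (edgeR glmTreat, adjusted p = 7.43e-05). The sources used here do not give how reads of either species were aligned or assigned within this family of similar genes. The part of read capture in the GBP2 difference was not tested.

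Differences between these species were common. Of 9440 genes tested, 48.2% were called, 24.7% as higher and 23.5% as lower in chimpanzee. A difference beyond 2-fold was called for 17.2% of genes, and for 8.74% it was in the direction of GBP2. The lines did not overlap in 27.1% of genes, and 13.3% had all chimpanzee lines on top. By size GBP2 ranked 455 of 9440 towards chimpanzee, and by p-value it ranked 250 over both directions.

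GBP3 counts were small, between 8 and 69 per library. Its level was 7.59, 13.8, 12.6, 9.15, 4.79 and 4.66 CPM in chimpanzee replicates 1 to 6. In rhesus macaque replicates 1 to 6 it was 4.83, 4.88, 3.95, 22.1, 4.70 and 6.21 CPM. Rhesus macaque replicate 4 stood above all other lines of either species, with a 95% exact binomial interval from 17.2 to 27.9 CPM, while the other 5 rhesus macaque lines lay between 3.95 and 6.21 CPM. Intervals of this kind cover counting error only.

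GBP3 averaged 8.77 ± 3.86 CPM over chimpanzee lines, and 7.77 ± 7.04 CPM over the macaques (SD, 6 lines per species). The log2 fold change was 0.15 ± 0.47 (SE, edgeR adjusted p = 0.819). Its approximate 95% interval ran from -0.77 to 1.07, so a 2-fold higher level in chimpanzee lay within the interval at this depth. The value hung on 1 library. Without rhesus macaque replicate 4 the log2 fold change was 0.79 (edgeR adjusted p = 0.0932). GBP3 is close in sequence to other members of the family, and the sources used here do not give how reads shared between near-identical genes were assigned, so its level is uncertain.

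**Figure D1:**
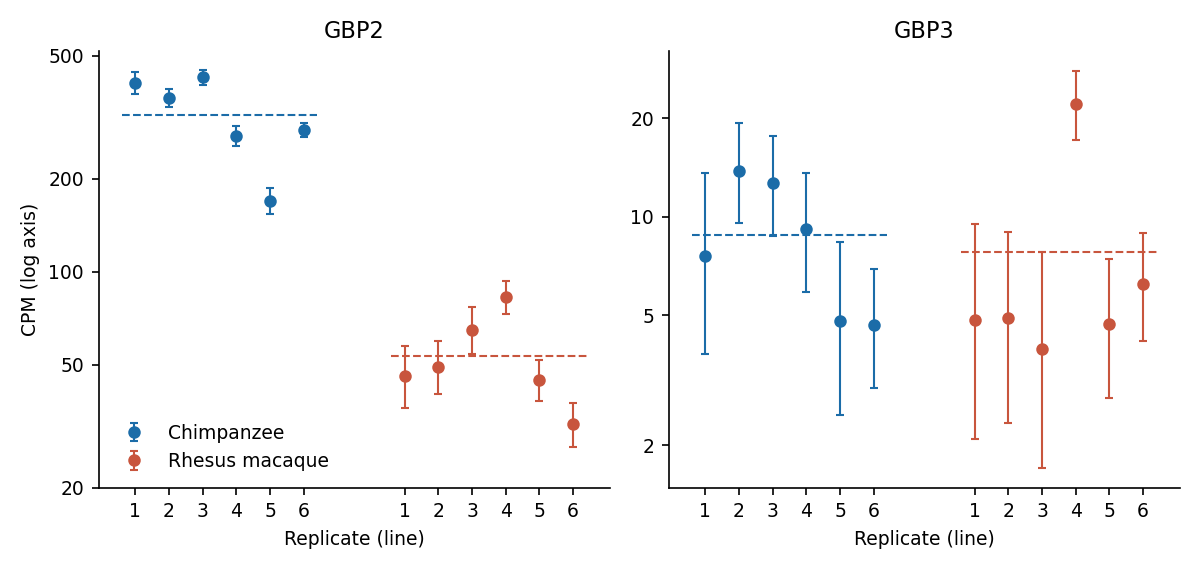
Levels of GBP2 and GBP3 in each line, in CPM on log axes, with replicates of each species along the horizontal axis; bars are 95% exact binomial intervals for counting error and dashed lines are species means. All 6 chimpanzee lines lie above all 6 rhesus macaque lines for GBP2, whereas GBP3 overlaps and rhesus macaque replicate 4 stands alone at 22.1 CPM.

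The 2 genes differed from each other in how they separated the species. In each library the GBP2 count was divided by the GBP3 count, so that library size cancels. The ratio lay between 26.5 and 61.8 in chimpanzee lines and between 3.75 and 16.4 in rhesus macaque lines, without overlap. On the log2 scale, with 0.5 added to each count, chimpanzee lines averaged 5.22 ± 0.48, macaques 2.98 ± 0.73 (SD, 6 lines per species), a difference of 2.25. This ratio and the one on single exons that follows were chosen after the values were seen, so both are given as descriptions, with no test.

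GBP3 is counted on 1 exon of 194 bases, and exon 2 of GBP2 has the same length, from 89347948 to 89348141. On these 2 exons alone the count ratio, GBP2 over GBP3, ran from 3.29 to 8.75 in chimpanzee and from 0.493 to 2.75 in rhesus macaque. The log2 ratio averaged 2.20 ± 0.56 for chimpanzee, against 0.34 ± 0.96 for macaque (SD, 6 lines per species). Per length, whole GBP2 stood at 165 ± 49.5 CPM per kb in chimpanzee, against 45.2 ± 19.9 CPM per kb for the GBP3 exon. In rhesus macaque the levels were 27.3 ± 9.16 CPM per kb for GBP2 and 40.1 ± 36.3 CPM per kb for GBP3, a gap smaller than the spread of GBP3 between lines. Replicate 4 alone stood at 114 CPM per kb for GBP3, and without it the other 5 macaque lines averaged 24.3 for GBP2, with a range from 16.5 to 33.1, and 25.3 for GBP3, with a range from 20.3 to 32.0.

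The counted exons of GBP2 were then taken one by one, to see whether the difference was carried by the whole gene. Exons are numbered in the files in order of rising coordinate, which is not necessarily the order in the transcript. All 8 exons had counts in all 12 libraries, the lowest count being 3, and none overlapped an exon of another gene. In 7 of the 8 exons every chimpanzee line lay above every rhesus macaque line. The matching share over all exons was not computed, and 13.3% of all tested genes had every chimpanzee line on top. The exception was exon 3, of 103 bases, where the lowest chimpanzee line stood at 73.7 and the highest rhesus macaque line at 91.0 CPM per kb. GBP2 was summed from these exons, so their direction is not independent of the call for the gene.

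The ratio of means varied along the gene, though no exon passed the exon usage test given below. Exon 1, the longest at 665 bases (89345898 to 89346562), averaged 71.5 CPM per kb over chimpanzee lines, of which the lowest had 37.2, and 15.5 over the macaques, of which the highest had 23.6, a ratio of means of 4.61. Exons 2, 3 and 4 had ratios of 4.67, 4.94 and 5.00, and exon 5 had 6.22. The ratio was 8.69 for exon 6, 11.1 for exon 7 and 11.1 for exon 8. Exon 7, of 128 bases (89359414 to 89359541), held the highest chimpanzee density, at 351 ± 132 CPM per kb, and stood at 31.6 ± 9.02 CPM per kb in rhesus macaque. In exon 8, of 207 bases (89360048 to 89360254), the lowest chimpanzee line had 73.3 and the highest macaque line 17.7 CPM per kb (SD over 6 lines per species). Exons 1, 3, 7 and 8 were singled out after their values were seen.

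**Figure D2:**
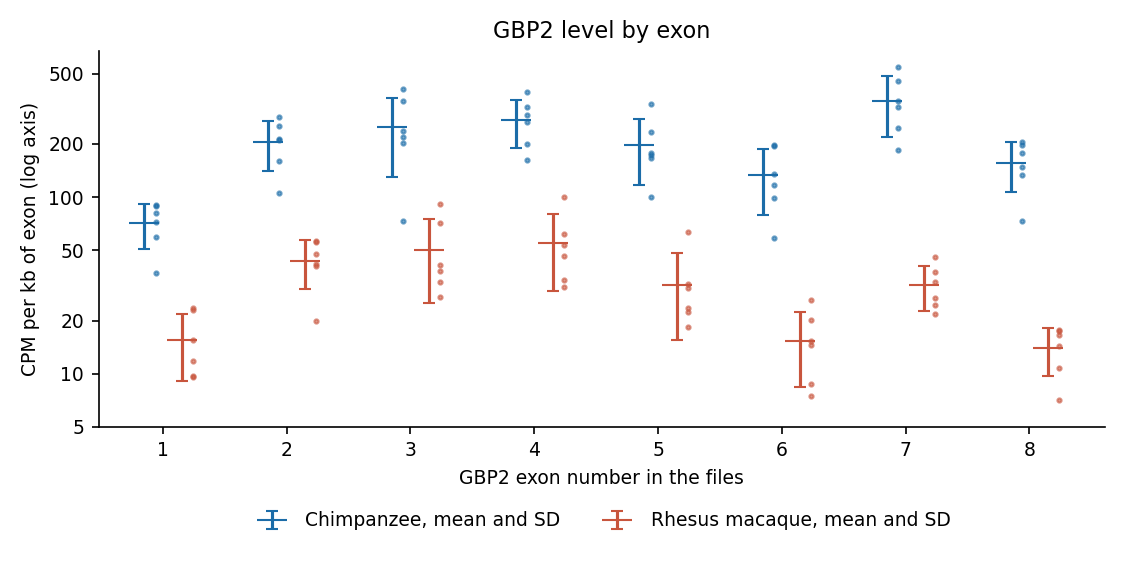
Level of each counted GBP2 exon in CPM per kb on a log axis, by exon number in the files; bars are mean and SD over 6 lines and small points are single lines. Chimpanzee lies above rhesus macaque at every exon, with ratios of means from 4.61 at exon 1 to 11.1 at exon 8, and the lines overlap only at exon 3. No exon passed the exon usage test.

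As a share of the gene's counts, exon 7 took 14.3% ± 4.22 in chimpanzee and 7.99% ± 2.44 in rhesus macaque, and exon 8 took 10.1% ± 1.96 and 6.17% ± 3.23. Exon 1 took 14.8% ± 0.974 in chimpanzee and 19.2% ± 3.83 in rhesus macaque. These shares overlapped between the species. For exon 7 they ran from 8.23% to 19.0% in chimpanzee and from 5.34% to 11.9% in rhesus macaque. With the gene's level taken out, no exon passed the exon usage test, and the lowest exon-level value was that of exon 7 (edgeR diffSpliceDGE adjusted p = 0.361). At an unadjusted p under 0.05 there were 2 exons, numbers 7 and 8. GBP2 as a gene did not pass (Simes adjusted p = 0.524; gene-level F test adjusted p = 0.0903), where 4.27% of 9970 genes did by the Simes rule and 0.852% of 87939 exons did one by one. Rhesus macaque had 66 counts on exon 7 and 52 on exon 8 over all 6 lines, which limits the precision of these shares. GBP3, with 1 exon, had no exon usage to test.

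The variation between lines of the same species was examined next. GBP2 varied by 2.50-fold between the lowest and the highest chimpanzee line and by 2.58-fold between the rhesus macaque lines. Its SD of log2 CPM was 0.49 in chimpanzee, where the median over all tested genes was 0.48, and 0.47 in rhesus macaque, where the median was 0.45. GBP3 varied by 2.96-fold in chimpanzee and by 5.59-fold in rhesus macaque, with SDs of 0.61 and 0.85. In rhesus macaque 86.9% of tested genes had a lower SD than GBP3. That range of GBP3 rested on replicate 4, at 22.1 CPM, while the other 5 macaque lines lay between 3.95 and 6.21 CPM. The small counts of GBP3 also add counting error to the spread.

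A difference in spread between the species was not called for either gene. The mean absolute deviation of log2 CPM from the species median was 0.37 in chimpanzee and 0.33 in rhesus macaque for GBP2 (exact permutation test, two-sided, p = 0.803, adjusted p = 0.985), and 0.49 and 0.44 for GBP3 (p = 0.959, adjusted p = 0.998 by the same permutation test). No gene of the 9440 passed this test after adjustment (0% called, 6.95% at an unadjusted p under 0.05). The smallest p the design allows is 0.00216. After adjustment over 9440 genes such a value passes only where many genes have p-values that low. The 0% is therefore no evidence of equal spread.

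By level, the chimpanzee lines ran 3, 1, 2, 6, 4 and 5 for GBP2 and 2, 3, 4, 1, 5 and 6 for GBP3, each given by replicate number from the highest level to the lowest. The rhesus macaque lines ran 4, 3, 2, 1, 5 and 6 for GBP2 and 4, 6, 2, 1, 5 and 3 for GBP3. Replicate 4 thus led both genes in rhesus macaque, while replicate 6 was lowest for GBP2 and second for GBP3. Neighbours in the order of GBP2 had overlapping counting intervals, except chimpanzee replicates 2 and 6, chimpanzee replicates 4 and 5, and rhesus macaque replicates 5 and 6.

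Across the 6 chimpanzee lines the log2 CPM of GBP2 and GBP3 had a Pearson r of 0.69 (exact permutation p = 0.124, adjusted over 2 relations p = 0.247) and a Spearman rho of 0.49 (exact permutation p = 0.356, adjusted p = 0.711). Without the 2 lines farthest from the GBP2 median, replicates 3 and 5, r was 0.36. Across the 6 rhesus macaque lines r was 0.57 (exact permutation p = 0.301, adjusted p = 0.301) and rho was 0.09 (exact permutation p = 0.919, adjusted p = 0.919). Without replicates 4 and 6, the farthest from the median, r was -0.92 on 4 lines, and without replicate 4 alone it was -0.99 on 5 lines (exact permutation p = 0.05). The positive value in rhesus macaque thus rested on replicate 4, and no relation between the 2 genes was called in either species.

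**Figure D3:**
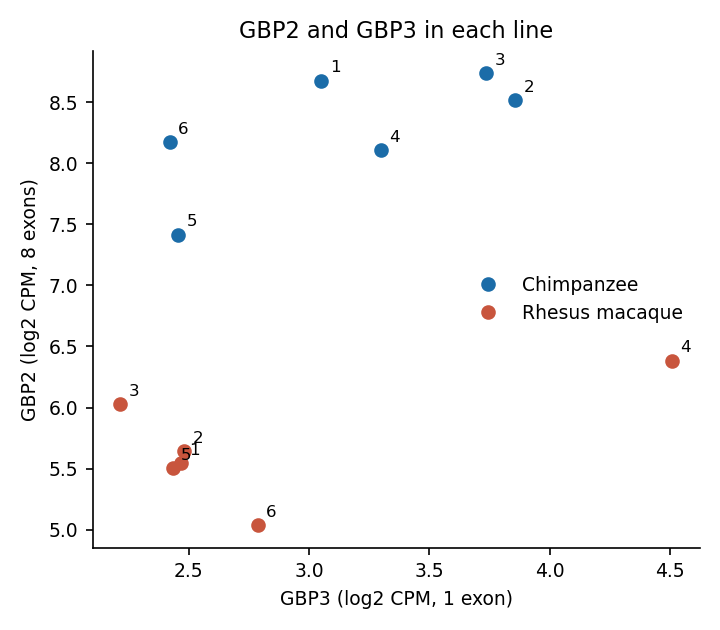
GBP2 against GBP3 in log2 CPM, 1 point per line, with the replicate number beside it. The species separate along the GBP2 axis and overlap along the GBP3 axis, and rhesus macaque replicate 4 is highest for both genes among the rhesus macaque lines.

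Sex was the only other factor in the labels. GBP2 stood at 330 ± 83.6 CPM in 3 chimpanzee females and 315 ± 127 CPM in 3 males, and at 63.8 ± 27.0 CPM in 2 rhesus macaque females and 48.0 ± 13.4 CPM in 4 males (mean and SD). The log2 fold changes, female minus male, were 0.07 ± 0.38 for chimpanzee (SE; edgeR adjusted p = 0.999) and 0.41 ± 0.40 for macaque (SE; edgeR adjusted p = 1). GBP3 stood at 8.81 ± 3.99 CPM in chimpanzee females and 8.73 ± 4.61 CPM in males.

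In rhesus macaque the GBP3 levels were 22.1 and 4.70 CPM in the 2 females, and from 3.95 to 6.21 CPM in the 4 males. The log2 fold change of 1.40 (standard error 0.62) did not pass (edgeR adjusted p = 1, and 0.0418 before adjustment). Without replicate 4, a female, it was -0.07. The sex effects did not differ between the species by test (edgeR adjusted p = 0.983 for GBP2; for GBP3 the edgeR p was 0.130 before adjustment). No gene passed for sex in chimpanzee, in rhesus macaque or for the difference between them (0% of 9440 each by edgeR, with 6.93%, 2.18% and 5.07% at an unadjusted p under 0.05). DESeq2 called 50, 0 and 14 genes.

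The surroundings of the 2 genes on chromosome 1 were read from the same coordinates. The 3 listed genes before GBP3 and the 3 after GBP2 are described by position, since the tables used pair no name with their identifiers. The gene before GBP3, with 13 exons from 89174044 to 89231224, averaged 54.3 ± 24.0 CPM over chimpanzee and 28.6 ± 12.4 over macaque lines, with a log2 fold change of 0.91 that did not pass (edgeR adjusted p = 0.0524). The next one out, from 89090909 to 89129889, had a log2 fold change of -0.42 (edgeR adjusted p = 0.0694). The one beyond, from 88922493 to 89071428, had 0.26 (edgeR adjusted p = 0.453). Between GBP3 and GBP2 lay 1 listed gene, a single exon of 5 counts in all libraries together, too few to test. In this stretch of 9 listed genes, 7 were tested and GBP2 was the 1 called, where 48.2% of all tested genes were called.

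The listed gene next to GBP2, 11.3 kb on, has 5 counted exons from 89371529 to 89403129. It held 1 count over all chimpanzee lines and 41 over all rhesus macaque lines, and 34 of these 41 came from replicate 4, the line that also led GBP2 and GBP3. The other rhesus macaque lines held 5, 0, 0, 1 and 1 counts. Too few counts kept this gene from the test. Most of its counts lay on the exon of 281 bases, with 1 in chimpanzee and 29 in rhesus macaque. The exon of 246 bases held 0 and 3. Those of 194, 213 and 128 bases have the lengths of GBP2 exons 2, 4 and 7. They drew 0 counts in chimpanzee and 4, 3 and 2 in rhesus macaque. A further gap of 385 kb without a listed exon followed. Beyond it, the genes from 89788062 to 89831524 and from 89924617 to 89953300 had log2 fold changes of -0.15 and 0.41 and did not pass (edgeR adjusted p = 0.695 and 0.521).

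**Figure D4:**
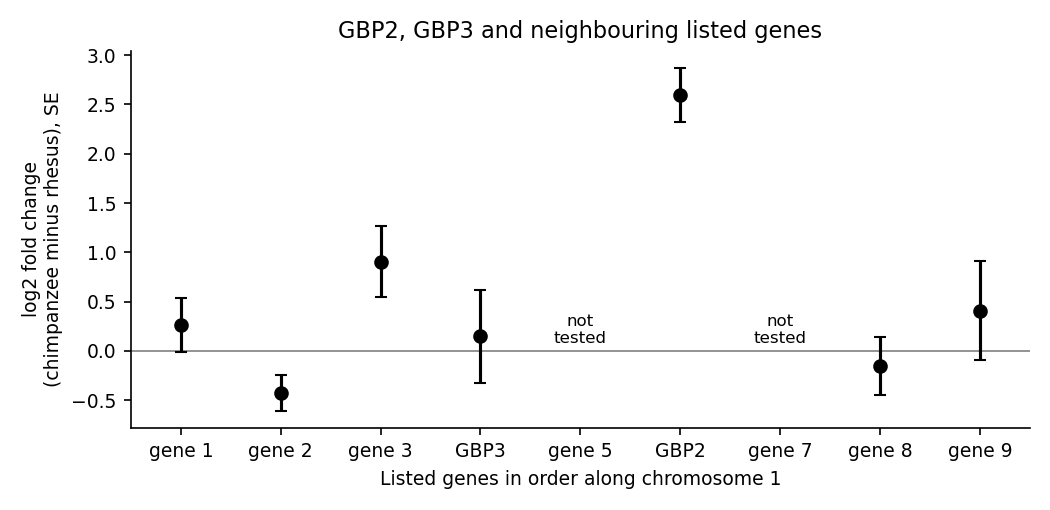
Log2 fold change between the species, chimpanzee minus rhesus macaque, with its standard error, for GBP2, GBP3 and the other listed genes in their order along chromosome 1 (numbered where unnamed). GBP2 stands at 2.60, the tested neighbours lie between -0.42 and 0.91, and 2 genes had too few counts to test.

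Other genes of the interferon response gave a setting for the GBP2 difference. A list of 9 identifiers for interferon-gamma signalling (receptor chains, kinases, transcription factors and a feedback inhibitor) had 8 genes counted and tested. Of these, 4 were higher and 1 was lower in chimpanzee and 3 did not pass, with log2 fold changes from -3.53 to 1.98 and a median of 1.06, where the median over all tested genes was 0.04. The called share, 5 of 8, is read against the 48.2% of all tested genes that were called, 24.7% as higher and 23.5% as lower. Chimpanzee lines summed to between 1963 and 3675 CPM over this list and rhesus macaque lines to between 1628 and 2481 CPM, so that the summed levels overlapped.

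A second list of 17 interferon-induced identifiers outside the cluster had all 17 counted and 14 tested. In all rhesus macaque libraries 1 of the 17 had 0 counts. Of the 14, 11 were higher and 1 was lower in chimpanzee and 2 did not pass, with a median log2 fold change of 2.03 and a range from -2.74 to 9.11, against 24.7% called higher and 23.5% called lower among all tested genes. Its summed level lay between 3267 and 15674 CPM among chimpanzee lines and between 1451 and 2524 among macaques, without overlap. The upper chimpanzee value was that of replicate 1, and the next line stood at 6345 CPM. Both lists were drawn up with earlier results of these data known. They are no independent evidence of direction, and their part in the GBP2 difference was not tested. From the highest to the lowest summed level on the second list, the chimpanzee lines ran 1, 2, 4, 3, 5 and 6, and the macaque lines ran 2, 1, 4, 3, 5 and 6. Replicates 5 and 6 were the lowest macaque lines both on this list and for GBP2, while the highest differed, replicate 2 on the list and replicate 4 for GBP2. Among chimpanzee lines replicate 6 was lowest on the list and replicate 5 was lowest for GBP2 and on the first list. The macaque lines went the other way on the first list. There replicate 6, lowest for GBP2, was the highest at 2481 CPM. Replicate 4, highest for GBP2, stood at 1922 CPM, above only replicate 1 at 1628 CPM.

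The genes whose levels followed the members most closely from line to line were sought among the 9252 tested genes that averaged 5 CPM or more, by the Pearson correlation over 12 lines after each species' mean was taken out. All values are descriptions, from libraries shared by every gene. The closest genes were picked for their high r, so the size of r is no evidence of a link. The closest to GBP2 lay on chromosome 17 from 34143676 to 34150221, with 9 counted exons (r = 0.85, with 0.77 in chimpanzee and 0.94 in rhesus macaque). It did not differ in level by test between the species (log2 fold change 0.29, edgeR adjusted p = 0.590). The second lay on chromosome 1 from 149298503 to 149307593 (r = 0.84) and was higher in chimpanzee (log2 fold change 1.74, edgeR adjusted p = 0.00246).

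For GBP3 the closest genes lay on chromosome 12 from 1007175 to 1387674 (r = 0.86) and on chromosome 3 from 120843596 to 120862127 (r = 0.86). The gene on chromosome 12 had 19.8 CPM in chimpanzee and 21.0 in macaque lines on average (log2 fold change -0.11, edgeR adjusted p = 0.881). The gene on chromosome 3 averaged 0.768 CPM in macaque lines and was higher in chimpanzee (log2 fold change 4.04, edgeR adjusted p = 0.000185), so its macaque values rest on few counts. Their r fell to 0.58 and 0.60 without rhesus macaque replicate 4. For the GBP2 genes the values without it were 0.79 and 0.80. GBP2 and GBP3 themselves had r = 0.61 over the 12 lines by this measure.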

How the data were processed

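The authors deposited 1 file of raw counts per library, as whole-number read counts per exon; an exon name gives the gene identifier, exon number and position. The sources used here do not give the aligner, counter, genome build or exon definitions, and coordinates are those of the deposited files. An exon missing from a file was taken as 0 where another library lists it. The files hold Ensembl identifiers only; 0 of 16903 matched the gene name table. Names of the 5 members came with their identifiers, and the interferon and marker lists were drawn up by identifier without a table to check them, so their genes are not named. Per the labels' protocols, RNA came from an RNeasy kit and sequencing was on a GAII instrument, with no step named that marks strand.

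Counts were summed per gene and fitted with the edgeR 4.0.16 quasi-likelihood test (robust fit, TMM, limma 3.58.1, R 4.3.3), with species as the only term and the default expression filter (minimum count 10, minimum total 15). Adjustment followed Benjamini and Hochberg over all tested genes, with a threshold of 0.05. Standard errors of log2 fold changes were the absolute log2 fold change over the square root of the test's F statistic. Intervals of fold changes used normal quantiles, and are narrower than intervals on the test's own degrees of freedom. Log2 CPM used a prior count of 2. Exon usage used exons with at least 10 counts. Sex was tested in a fit of 4 species-by-sex groups. Replicates were numbered by order of deposit within a species and pair no samples. The closest pair of libraries within a species differed by 15.6 times counting noise (chi-square per degree of freedom), so none was a copy of another. With 2 members counted, the planned correlations came to 1 pair of genes per species. DESeq2 1.42.0 and other scalings, filters, exon sets and library sets were run as alternatives. Members, lists and tests were chosen with earlier results of these data known. Genes named or placed were all members, the 3 listed genes on either side, those between, and the 2 genes closest to each member.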

Additional observations from a re-analysis of the deposited data

Results flagged for a closer look

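GBP3 in rhesus macaque replicate 4 stood at 22.1 CPM, far from the other 5 rhesus macaque lines: its gap to the next line, at 6.21 CPM, was 87.5% of the range of the 6 lines, above the 95% critical value of Dixon's test. Chance takes about 1 of 20 groups past that critical value, and 4 groups were examined, each at both ends. The same library led GBP2 in rhesus macaque at 82.8 CPM and held 34 of the 41 rhesus macaque counts of the listed gene next to GBP2.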

How the results depend on the processing

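The GBP2 difference kept its direction and its call under all 21 alternatives, with adjusted p-values up to 0.00127 (edgeR, males only). Its log2 fold changes ran from 2.31 (without chimpanzee replicate 1 and rhesus macaque replicates 5 and 6) to 2.75 (without rhesus macaque replicate 4). Chimpanzee replicate 1 and rhesus macaque replicates 5 and 6 were picked as a group beforehand, by a measure not given here. The call beyond 2-fold held in all 13 alternatives run for it. GBP3 was called under none of 20 alternatives. Its log2 fold change was -0.046 without chimpanzee replicate 1 and rhesus macaque replicates 5 and 6. It was -0.060 without rhesus macaque replicates 2 and 6, the lines highest for the T lymphocyte list. The latter alternative was added after seeing the data, and in it GBP2 had 2.42. With 1 library left out at a time, GBP2 ran from 2.46 to 2.75 and GBP3 from -0.016 to 0.79, in both tests of the species difference. Males only gave 2756 genes in place of 4549, with fewer samples. The gene-level F test called 1675 genes for exon usage in place of 426, and the counts with 1 library left out ran from 260 (without rhesus macaque replicate 3; 263 without replicate 2) to 504; the cause was not tested.

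The difference in spread for GBP3 was -0.29 with squared deviations, another scale; with 1 library left out the spread difference ran from -0.10 to 0.14 for GBP2 and from -0.034 to 0.37 for GBP3. For sex, DESeq2 called 50 genes within chimpanzee, and 14 whose sex effect differed between species, and leaving out 1 library gave from 0 to 2 and from 0 to 1 genes. With 1 library left out, the sex difference of GBP2 ran from -0.21 to 0.29 in chimpanzee, from -0.074 to 0.79 in rhesus macaque and from -0.72 to 0.16 for the difference between species; that of GBP3 ran from -0.36 to 0.51, from -0.072 to 2.12 and from -2.13 to 0.071. The correlation of GBP2 with GBP3 in rhesus macaque ran from -0.99 to 0.79. Without the exon of most counts GBP3 gave no value. No paired analysis was possible because the labels give no replicate numbers that the species share. GBP3 rests on 281 counts in all, which limits what could be called for it.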
